A study of Mus musculus with 20 samples.

Results

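The genes described here encode the oxidative phosphorylation machinery, split by the genome that carries them. Members were chosen by symbol alone. The rule took the 13 protein-coding genes of the mitochondrial chromosome and every nuclear gene whose symbol begins with Ndufa, Ndufb, Ndufc, Ndufs, Ndufv, Sdh, Uqcr, Atp5 or a Cox prefix from Cox4 to Cox8, leaving out the Ndufaf and Sdhaf assembly factors. It found 98 of the 19214 genes in the count tables, 13 mitochondrially encoded and 85 nuclear. The mitochondrial genes supply 7 subunits of complex I, 1 of complex III, 3 of complex IV and 2 of complex V. The nuclear members comprise 36 genes of complex I, 4 of complex II, 8 of complex III, 18 of complex IV (Ndufa4, now counted as a cytochrome c oxidase subunit, among them) and 16 of complex V. Another 3 nuclear symbols follow the rule without being classical subunits: Cox7a2l, a supercomplex factor, Ndufa4l2, a paralogue of Ndufa4, and Atp5s, a coupling factor. A filter on low counts kept all 13 mitochondrial genes and 82 of the 85 nuclear ones. Cox7b2, Cox8b and Cox8c were too low to be tested.

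As background, complexes I and II feed electrons from NADH and succinate to ubiquinone, complex III passes them to cytochrome c, and complex IV hands them to oxygen. Complexes I, III and IV pump protons across the inner mitochondrial membrane, and complex V, the ATP synthase, uses the resulting gradient to make ATP, on which neurons depend for ion pumping and synaptic transmission. Complex II is wholly nuclear encoded, whereas the other complexes combine nuclear subunits with products of the mitochondrial chromosome, which is transcribed as long precursors that are cut into single messages.

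The libraries hold polyadenylated RNA of the mouse BNST (bed nucleus of the stria terminalis), a forebrain relay between amygdala and hypothalamus, in 4 groups of 5. Female controls and male controls are set against susceptible females and susceptible males, which went through chronic restraint stress as a model of anxiety, with repeated confinement of the animal. Strain, age, length of stress, the criterion for susceptibility and whether each library is a separate animal were not given in the sources used here. P-values measure the spread over these libraries only, part of which may be technical. Library totals were 14637636 to 17862840 counts. The GABA neuron genes Gad1, Gad2 and Slc32a1, which mark the inhibitory neurons that prevail in the BNST, were high in every library, with lowest values of 457, 454 and 150.3 CPM (counts scaled to the library total). Markers of neighbouring tissue were high in some libraries: Ttr, made by the choroid plexus, passed 100 CPM in 7 of the 20, and Pmch, made by neurons of the lateral hypothalamus, passed 1 CPM in 5, of which 3 were female controls (1, 2 and 3). Because these are bulk samples, fewer cells of a type and less RNA per cell cannot be told apart.

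Before any comparison of groups, the sequences of the mitochondrial class were set against annotated nuclear copies. Of the 13 mitochondrial genes, 5 neighbours (mt-Co2, mt-Atp6, mt-Co3, mt-Nd3 and mt-Nd4l) have an annotated pseudogene on chromosome 1 that matches over almost their whole length (GENCODE release 21, GRCm38). The copies of mt-Co2, mt-Atp6, mt-Co3 and mt-Nd4l had 0 differences over 681, 678, 783 and 294 aligned bases, and that of mt-Nd3 had 1 difference in 345. The pair below shows the first 120 bases of mt-Co2, subunit 2 of cytochrome c oxidase, on the mitochondrial chromosome (chrM:7013-7132, plus strand), and of its copy Gm28661 (chr1:24615446-24615565, minus strand), from the GENCODE transcripts.
mt-Co2: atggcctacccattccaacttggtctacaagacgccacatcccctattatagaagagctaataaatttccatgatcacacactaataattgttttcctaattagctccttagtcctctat
Gm28661: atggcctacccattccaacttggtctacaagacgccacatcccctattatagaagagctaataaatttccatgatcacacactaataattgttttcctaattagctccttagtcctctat
The stretches carry no difference, so a read lying within them fits both places. For mt-Nd3, a complex I subunit, the first 60 bases (chrM:9459-9518, plus strand) and those of Gm28438 (chr1:24613060-24613119, minus strand) are set out with the substitution T3C in capitals, counted from the first base of the coding sequence.
mt-Nd3: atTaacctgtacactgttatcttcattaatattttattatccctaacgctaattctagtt
Gm28438: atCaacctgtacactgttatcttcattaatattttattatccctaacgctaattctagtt
By contrast, mt-Co1, the catalytic subunit of cytochrome c oxidase, has a full-length but diverged copy, Gm13340 on chromosome 2, with 37 differences in 1545 bases. A stretch of 120 bases within it (chrM:5778-5897, plus strand, against chr2:22589078-22589197, minus strand) holds A462G, A468G, T501C, C519T and G534A, in capitals and counted from the first base of the coding sequence.
mt-Co1: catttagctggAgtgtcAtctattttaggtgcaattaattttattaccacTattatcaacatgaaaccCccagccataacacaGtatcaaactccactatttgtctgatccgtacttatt
Gm13340: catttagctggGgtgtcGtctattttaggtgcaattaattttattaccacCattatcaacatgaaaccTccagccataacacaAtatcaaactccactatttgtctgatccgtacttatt
Of all 150-base windows, the read length of this sequencing, 23.6% of those in mt-Co1 and 59.2% of those in mt-Nd4 also occur in a nuclear pseudogene, against 96.98% to 99.8% in the 5 copied neighbours. In mt-Nd1, mt-Nd2, mt-Nd5, mt-Nd6, mt-Cytb and mt-Atp8 the share was 0. Only annotated transcripts were searched, so nuclear copies without annotation would have been missed. How the authors' counting treated reads with several matches was not given in those sources.

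Counted levels differed widely along the chromosome. Given as CPM per kilobase of exon, which allows genes of unequal length to be compared, mt-Co1 averaged 12099 ± 1800.4 (SD, n = 20 libraries), mt-Cytb, the only mitochondrial subunit of complex III, 8465 ± 1722, and mt-Nd1, a core subunit of complex I, 6909 ± 1244. The complex I subunits mt-Nd2, mt-Nd4, mt-Nd5 and mt-Nd6 gave 5023 ± 1091, 4107 ± 896, 3293 ± 510.3 and 3008 ± 745 CPM per kilobase. All 7 of these lay above the highest nuclear member, by at least 11.2-fold on the mean of the libraries. The 5 copied neighbours were far lower: mt-Atp6, a proton channel subunit of the ATP synthase, averaged 307 ± 186, mt-Co2 299 ± 132, mt-Nd3 219 ± 73.3, mt-Co3 151 ± 42.03 and mt-Nd4l 72.1 ± 34.5 CPM per kilobase. mt-Atp8, a small ATP synthase subunit that lies between mt-Co2 and mt-Atp6, overlaps the start of mt-Atp6 and has no annotated copy, had 3.49 ± 2.27. These 6 neighbours from mt-Co2 to mt-Nd4l are called the low stretch below, and the other 7 the high-level genes. The low stretch was set as the 5 copied neighbours plus mt-Atp8, added by name. Both names were given after the levels had been seen. Annotated copies do not follow the division throughout. None was found for mt-Atp8, but the copies of its neighbours mt-Co2 and mt-Atp6 lie near each other, at chr1:24614885-24615565 and chr1:24613974-24614651. The sequence between them was not searched, so a copy of mt-Atp8 there would have been missed. The high-level mt-Nd4 has an annotated copy on chromosome 1 (Gm28439) with 0 differences over 876 bases. The high-level genes held 98.8% of the mitochondrial counts, and mt-Co1 alone 34.6%. Whether lost reads lowered the low stretch was not tested, since reads were not used here.

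**Figure D1:**
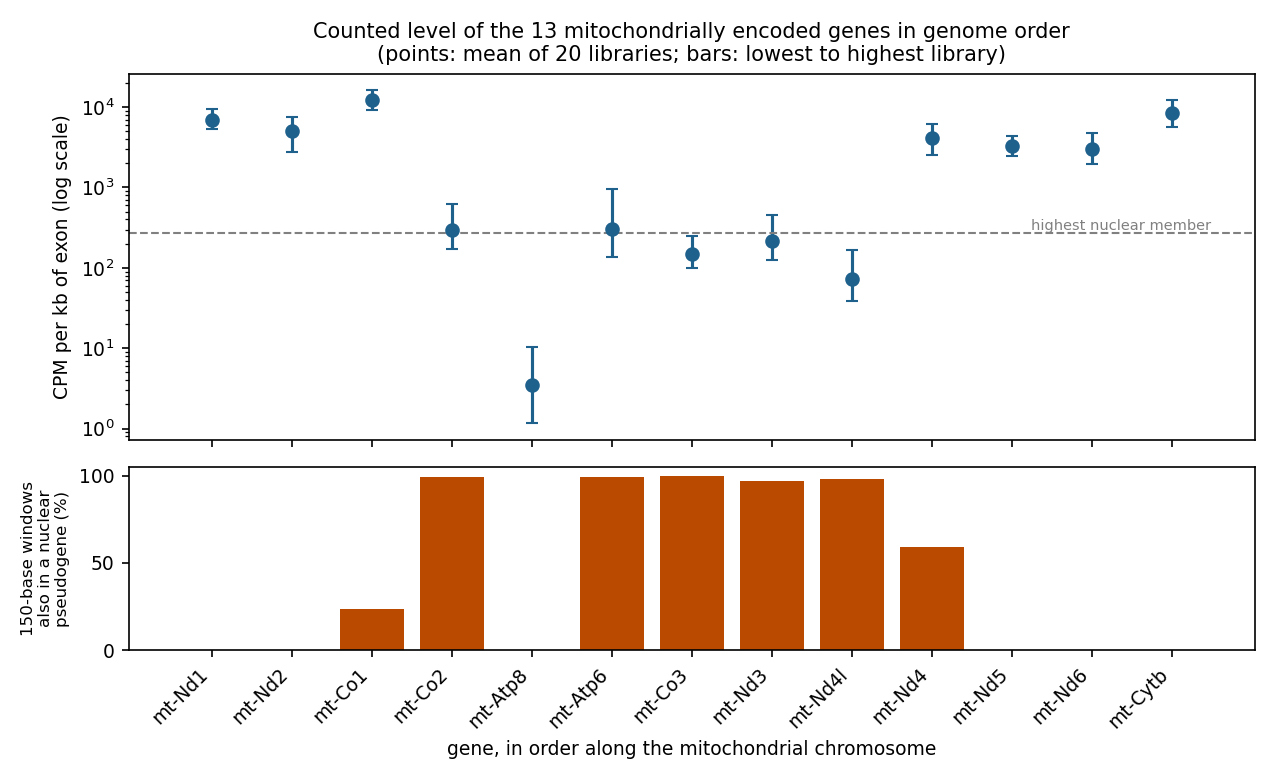
Counted level of each mitochondrially encoded gene in chromosome order (upper axis, CPM per kilobase of exon, log scale; points are means of 20 libraries, bars the lowest and highest library) and the share of its 150-base windows that also occur in a nuclear pseudogene (lower axis, percent). The 5 genes whose bars reach 96.98% or more sit between 72.1 and 307 CPM per kilobase, and mt-Atp8, inside the same stretch, is lower still at 3.49.

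Nuclear members spanned 1.41 to 269 CPM per kilobase among the 82 tested, with a median of 40.3 against 5.71 for all 14884 genes tested. The medians of complexes I, II, III, IV and V were 39.5, 44.99, 56.96, 55.3 and 32.3 CPM per kilobase. At the top stood Cox8a, a small cytochrome c oxidase subunit, with 269 ± 33.6, Atp5a1 with 268 ± 10.7 and Atp5b with 248 ± 12.99, the alpha and beta subunits that form the catalytic head of the ATP synthase, and Cox4i1, which regulates complex IV, with 225 ± 20.6 (SD, n = 20). The first 2 of these differ by less than their spread. Sdha, the flavoprotein of succinate dehydrogenase, averaged 112 ± 6.65, its partners Sdhb, Sdhc and Sdhd 39.8 ± 3.51, 27.7 ± 2.12 and 50.2 ± 4.30 CPM per kilobase. In complex III, the core proteins Uqcrc1 and Uqcrc2 averaged 48.96 ± 2.80 and 56.2 ± 3.11 and the Rieske iron-sulfur protein Uqcrfs1 64.3 ± 5.43. In complex I, Ndufv1, which carries the NADH site, averaged 53.4 ± 3.41, and Ndufs1, with iron-sulfur clusters, 17.8 ± 0.756. Exon length here is the union over annotated transcripts, so a gene with long rare isoforms reads low on this scale.

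Where complex IV has tissue isoforms, the widely expressed form dominated. Cox6a1 averaged 263 ± 33.1 CPM per kilobase and the heart and muscle form Cox6a2 4.84 ± 2.92. Cox4i1 stood at the value given above and the lung form Cox4i2 at 1.41 ± 0.479. Cox7a2 averaged 80.4 ± 8.92 and the muscle form Cox7a1 1.57 ± 0.394, Cox6b1 138 ± 13.1 and the testis form Cox6b2 1.86 ± 0.765. The muscle and testis forms Cox8b and Cox8c were under the filter, at 0.881 ± 0.947 and 0.00663 ± 0.0296. Of the 3 genes for the identical mature c subunit of the ATP synthase rotor, Atp5g3 averaged 81.1 ± 6.98, Atp5g2 27.5 ± 3.04 and Atp5g1 17.7 ± 1.62 CPM per kilobase. Near-identical nuclear copies of members were not examined, so reads shared with them cannot be separated.

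The promoters of the nuclear members were searched for short motifs, as a description of their sequence. Of 85 nuclear members, 69 matched an entry of the RefSeq promoter table (250 bases before to 50 after the start, GRCm38.p6). A gene was counted for a motif if any of its entries held it. The palindrome made of GCGCA and its reverse complement is bound by nuclear respiratory factor NRF1 and is the same on both strands. It occurred in 5 of 69 members (7.25%), against 2.11% of the 11604 tested genes with an entry. Counted by entry and not by gene, it was in 0.971% of all 32851 promoters in the table. Matches are shown in capitals for Cox6a1 (chr5:115349076-115349155, minus strand), Ndufa11, an accessory subunit of complex I (chr17:56717667-56717746, plus strand), and Atp5k, the e subunit of the ATP synthase (chr5:108434405-108434484, minus strand).
Cox6a1: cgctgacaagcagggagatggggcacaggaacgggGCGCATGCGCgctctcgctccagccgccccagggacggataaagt
Ndufa11: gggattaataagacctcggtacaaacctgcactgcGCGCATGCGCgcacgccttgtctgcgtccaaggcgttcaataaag
Atp5k: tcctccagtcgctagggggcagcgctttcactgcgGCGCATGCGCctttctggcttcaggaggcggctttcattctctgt
The other 2 matches were in Atp5g2 and, after the start, in Uqcrc1. The ETS core CCGGAAG on either strand, bound by GABP (also named NRF2) among others, was in 23.2% of these members and 17.8% of these tested genes. The YY1 core AAGATGG was in 15.9% and 7.91%, the GC box GGGCGG in 42.03% and 66.5%, and TATAAA in 10.1% and 9.07%. Each was searched on both strands, and CCGGAAG and AAGATGG can overlap by the letters AAG, so a promoter may count for both. A match describes the letters and not binding.

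The 13 mitochondrial genes together took 4.21% to 7.37% of all counts, and the 85 nuclear members 0.762% to 1.01%. In female controls 1 to 5 the mitochondrial share was 4.21, 4.79, 4.98, 5.86 and 5.96%. Susceptible females 1 to 5 gave 7.22, 7.37, 5.38, 5.78 and 6.20%, the 3 highest of all 20 libraries among them. The share was 5.15, 6.17, 4.86, 4.57 and 4.28% in male controls and 4.82, 4.76, 5.44, 5.19 and 4.85% in susceptible males. Group means were 5.16% ± 0.740 (SD, n = 5), 6.39% ± 0.877, 5.01% ± 0.728 and 5.01% ± 0.293 in that order. The 2 female groups overlapped, since female controls 4 and 5 lay above susceptible females 3 and 4. For the nuclear members the means were 0.845% ± 0.0297, 0.856% ± 0.0950, 0.797% ± 0.0150 and 0.816% ± 0.0399, and susceptible female 1 stood apart at 1.01%. The mitochondrial counts were 5.15 to 9.51 times the nuclear ones. No test was made on these sums, since the members were chosen with earlier results of these data known.

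**Figure D2:**
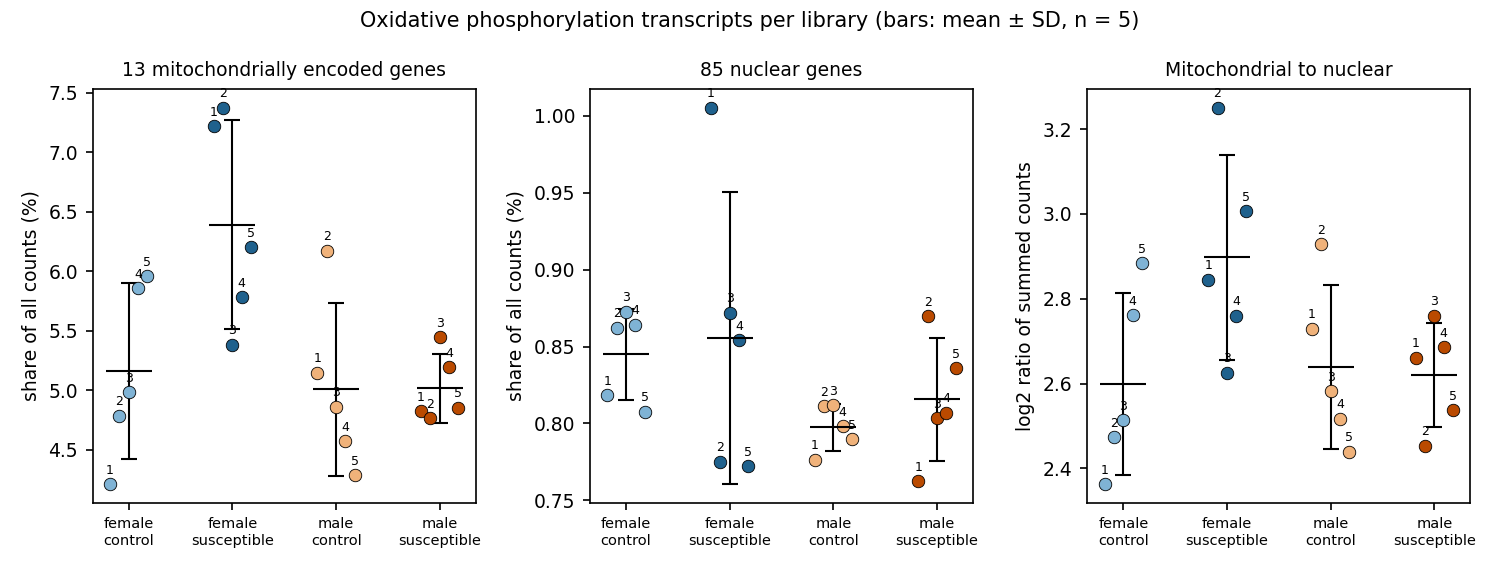
Share of all counts in percent taken by the 13 mitochondrial genes (left) and the 85 nuclear members (middle) and the log2 ratio of the summed counts (right) in each library, numbered by replicate, with the mean and SD of 5 libraries per group. Susceptible females 1 and 2 are the highest on the left at 7.22% and 7.37%, and susceptible female 1 alone is high in the middle at 1.01%.

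In susceptible females every mitochondrial gene stood higher than in control females, but none passed the test, and mt-Co3 and mt-Atp8 were below 0 in some alternatives. mt-Co3 ran from -0.068 to -0.010 without control female 1, without susceptible female 2 and without the libraries over 1 CPM of Pmch, and mt-Atp8 was -0.020 without the last. Fold changes are log2 estimates with standard errors from edgeR's quasi-likelihood test on all 14884 genes, with Benjamini-Hochberg adjustment and a threshold of 0.05. The 13 estimates ran from 0.055 to 0.87 with a median of 0.40, beside a median of 0.0062 for all genes. No gene of the whole table passed in this comparison (0%), and the lowest adjusted p of the 13 was 0.774. An unadjusted p under 0.05 with a higher estimate was met by 9 of 13 mitochondrial genes and 3.12% of all genes. Estimates above 0 made up 13 of 13, against 51.6% of all genes. In no mitochondrial gene were all susceptible females above all control females, which was so for 0.316% of all genes. Since the 13 share libraries, and all but mt-Nd6 lie on 1 strand and share precursors, they are not independent.

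In female controls 1 to 5, mt-Co1 was counted at 14372, 16229, 17048, 19676 and 21010.2 CPM, against 22832, 25069, 19012, 18956 and 22819.5 CPM in susceptible females. The male controls gave 17617, 21991, 17571, 15929 and 16710.1 CPM and the susceptible males 16774, 16524, 19220.4, 17771 and 16732 CPM for mt-Co1. Susceptible females 1, 2 and 5 exceeded every other library for mt-Co1, and the female groups overlapped. Its stress estimate was 0.30 ± 0.11 in females and -0.046 ± 0.11 in males (edgeR, adjusted p = 0.774 and 0.916).

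In female controls 1 to 5, mt-Cytb was counted at 6993, 8077, 8707, 10131 and 10618 CPM, against 12850.2, 14013, 9277, 10459 and 12102 CPM in susceptible females. The male controls gave 8912, 12806, 9106, 8808 and 6479 CPM and the susceptible males 8262, 8799, 9706, 9187 and 8379 CPM for mt-Cytb. The 2 highest libraries of mt-Cytb were susceptible females 2 and 1, and control male 2 lay above susceptible female 5. Its stress estimate was 0.40 ± 0.15 in females and -0.057 ± 0.15 in males (edgeR, adjusted p = 0.774 and 0.923).

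In female controls 1 to 5, mt-Nd1 was counted at 5110.4, 5789.7, 6097, 7289 and 7518 CPM, against 9113, 9166, 6604, 6764 and 8456 CPM in susceptible females. The male controls gave 6131, 7176, 5307, 5676 and 5404 CPM and the susceptible males 5684, 6094, 6652, 6117 and 6084 CPM for mt-Nd1. For mt-Nd1, susceptible females 1, 2 and 5 were again the highest of all, and susceptible females 3 and 4 lay below control females 4 and 5. The estimates were 0.33 ± 0.12 in females and 0.045 ± 0.12 in males (edgeR, adjusted p = 0.774 and 0.923).

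The other high-level genes had estimates in a like range: the female estimates of mt-Nd2, mt-Nd4, mt-Nd5 and mt-Nd6 were 0.39 ± 0.16, 0.42 ± 0.15, 0.20 ± 0.12 and 0.33 ± 0.15. In the low stretch 5 of 6 estimates were larger than all of these, and all had larger standard errors, with 0.87 ± 0.30 for mt-Nd4l, 0.65 ± 0.26 for mt-Co2, 0.50 ± 0.22 for mt-Nd3, 0.61 ± 0.37 for mt-Atp6, 0.055 ± 0.23 for mt-Co3 and 0.73 ± 0.49 for mt-Atp8. Its genes spread more between libraries, with a median SD of 0.57 on the log2 CPM scale (0.55 for the 5 without mt-Atp8) against 0.29 for the high-level genes. mt-Co2 shows that spread. It was counted at 119, 294, 219, 146 and 198 CPM in control females and 224, 421, 187, 268 and 428 CPM in susceptible females, where control female 2 passed susceptible females 1, 3 and 4. The median estimate of the 7 high-level genes alone was 0.33.

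Signs of the tissue taken moved with this comparison. The 3 control females with over 1 CPM of Pmch had the 3 lowest mitochondrial shares of their group. Without the 5 libraries over 1 CPM of Pmch, the mitochondrial share of control females averaged 5.91% over the 2 that were left, against 6.55% in susceptible females, and the median estimate was 0.20 with 11 of 13 above 0. The lateral hypothalamic markers Pmch and Hcrt summed to 0.636 to 200.05 CPM in control and 0.301 to 12.7 CPM in susceptible females, 2 of 2 being lower in the latter, and Hcrt was at 0 in 3 of the 20 libraries. All 8 striatal neuron markers were higher in susceptible females, at summed levels of 319 to 2098 and 1001 to 4603 CPM in control and susceptible females. All 6 oligodendrocyte markers were lower, at 5655 to 9615 and 5609.9 to 7424 CPM, as were all 6 thalamic markers, at 185 to 1314 and 168 to 1278 CPM. All 3 pituitary markers were lower, at 3.65 to 132 and 1.95 to 31.8 CPM, and 5 of 6 choroid plexus markers, at 50.8 to 2188 and 63.9 to 2246 CPM. Of the 11 listed GABA neuron genes, Gad1, Gad2 and Slc32a1 among them, 10 were higher, at 1297 to 2668 and 2045 to 3045 CPM. Their shares from BNST and striatal neurons were not separated. Of 6 astrocyte markers 4 were lower (median -0.093), 2 with an unadjusted p under 0.05 (edgeR). None of these markers passed the test, none of the striatal, oligodendrocyte or thalamic ones was at 0 in any library, and their part in the mitochondrial difference was not tested.

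The nuclear members of the same libraries stayed near the rest of the genes. Their median estimate in females was 0.037, 58 of 82 were above 0, none had an unadjusted p under 0.05 in either direction and none passed the test (edgeR, lowest adjusted p = 0.774). Complex medians were 0.023 for complex I, 0.051 for complex II, 0.050 for complex III, 0.031 for complex IV and 0.052 for complex V. The highest 3 were Ndufa4l2 at 0.20 ± 0.19, Ndufs4, an accessory complex I subunit needed for its assembly, at 0.17 ± 0.090, and Cox6c, a complex IV subunit, at 0.16 ± 0.083. The lowest were Atp5e, the epsilon subunit of the ATP synthase, at -0.12 ± 0.11, Cox6b2 at -0.15 ± 0.33 and Cox6a2 at -0.34 ± 0.49. The small excess above 0 rested on susceptible female 1: without it the median was -0.022 with 33 of 82 above 0. Without the 7 libraries over 100 CPM of Ttr the median was -0.030 with 28 of 82. Susceptible female 1, at 541 CPM of Ttr, is among those 7, so these are not separate checks. Susceptible female 1 also had the highest summed level of the cytosolic ribosomal protein genes, 11302 CPM against 7663 to 9429.5 CPM elsewhere.

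Cox6c is shown in values as a gene near the top of the nuclear class, not as a typical member. Its female estimate was 0.16 ± 0.083, against a nuclear median of 0.037. Cox6c was counted at 99.1, 117, 135, 117 and 120.2 CPM in control females and 144, 129.8, 118, 112 and 153 CPM in susceptible females. Control female 3 lay above susceptible females 2, 3 and 4, so the groups overlapped. The catalytic subunits had smaller estimates, with female estimates of 0.053 ± 0.053 for Atp5a1, 0.027 ± 0.058 for Atp5b, -0.014 ± 0.065 for Sdha, 0.036 ± 0.063 for Uqcrc1 and 0.022 ± 0.084 for Cox4i1.

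In males the estimates of the 2 classes lay close together. Of the mitochondrial genes, 7 of 13 were higher in susceptible than in control males and 0 had an unadjusted p under 0.05 in either direction, with a median of 0.045 beside -0.0097 for all genes. Of all genes, 47.5% had estimates above 0. With voom 6 of 13 were higher, with a median of -0.026. Leaving out 1 library at a time moved the mitochondrial median from -0.070 (without control male 5) to 0.13 (without control male 2). The widest single estimates were -0.37 ± 0.23 for mt-Co3 and 0.29 ± 0.37 for mt-Atp6. Among the nuclear members 54 of 82 were higher, with a median of 0.037, and 6 had an unadjusted p under 0.05 with a higher estimate, against 4.64% of all genes. No member passed the test, nor did any gene of the table (0%). Without the libraries over 100 CPM of Ttr, 28 of 82 nuclear estimates were above 0. In susceptible males all 6 oligodendrocyte and all 6 thalamic markers were higher, at summed levels of 5569 to 7251 and 213 to 1282 CPM against 3484 to 6539 and 202 to 584 CPM in control males, and all 8 striatal markers were lower, at 988 to 3181 against 1868 to 3672 CPM. All 4 endothelial markers were lower (median -0.39), 2 with an unadjusted p under 0.05 (edgeR), as were 4 of 5 cortical ones (median -1.08). Both lateral hypothalamic (median 3.39) and all 3 pituitary markers (median 0.69) were higher. None of these markers passed, and their part in the nuclear estimates was not tested.

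The 6 nuclear genes were Atp5s, Atp5f1, which encodes the b subunit of the ATP synthase stalk, Uqcrfs1, and the complex I members Ndufab1, Ndufa12 and Ndufv2. Atp5s was counted at 15.3, 15.2, 13.4, 16.8 and 12.03 CPM in control males and 19.3, 17.7, 19.2, 18.7 and 18.5 CPM in susceptible males. Every susceptible male was above every control male, and the estimate was 0.36 ± 0.096 (edgeR, adjusted p = 0.405). With limma's voom and quality weights Atp5s passed, at 0.36 with an adjusted p of 0.0226, among 683 genes of the table that passed under that method. Uqcrfs1 had 80.2, 78.9, 81.9, 82.2 and 78.6 CPM in control and 85.9, 89.6, 94.3, 86.8 and 90.2 CPM in susceptible males, again without overlap, with an estimate of 0.15 ± 0.068 (edgeR, adjusted p = 0.487). These were the 2 members with no overlap in this direction, a pattern met by 1.44% of all genes. Ndufb2, a complex I accessory subunit, and Ndufab1, the mitochondrial acyl carrier protein, had estimates of 0.25 ± 0.13 and 0.20 ± 0.082. The lowest male estimates were -0.16 ± 0.15 for Uqcr11, a small complex III subunit, -0.14 ± 0.10 for Cox6a1 and -0.11 ± 0.36 for Cox4i2.

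Subunits that carry the catalysis and the electron path were looked at in every comparison whatever their result. In complex I, male stress estimates were -0.034 ± 0.065 for Ndufv1, 0.15 ± 0.071 for Ndufv2, which holds an iron-sulfur cluster beside it, 0.063 ± 0.045 for Ndufs1, -0.082 ± 0.065 for Ndufs3, 0.0028 ± 0.078 for Ndufs7 and 0.053 ± 0.093 for Ndufs8, the last 2 being iron-sulfur subunits near the quinone site. The female estimates of the same 6 were -0.027 ± 0.064, 0.12 ± 0.071, 0.085 ± 0.045, 0.096 ± 0.065, 0.025 ± 0.078 and 0.021 ± 0.093. Complex II, the branch with no mitochondrially encoded part, had female estimates of -0.014 ± 0.065 for Sdha, 0.12 ± 0.077 for the iron-sulfur subunit Sdhb, and 0.065 ± 0.071 and 0.037 ± 0.080 for the membrane anchors Sdhc and Sdhd. Its male estimates, in the same order, were 0.058 ± 0.065, 0.060 ± 0.077, 0.074 ± 0.071 and -0.021 ± 0.080.

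In complex III, Uqcrc1 and Uqcrc2 had female estimates of 0.036 ± 0.063 and 0.046 ± 0.056 and male estimates of -0.0074 ± 0.063 and 0.043 ± 0.056. In complex IV, Cox4i1, Cox5a and Cox5b had 0.022 ± 0.084, 0.079 ± 0.072 and -0.038 ± 0.088 in females and -0.11 ± 0.084, 0.094 ± 0.073 and 0.027 ± 0.088 in males. In complex V, Atp5a1 and Atp5b had -0.0089 ± 0.053 and -0.013 ± 0.058 in males. None of these passed the test in females or males, and the 2 genes Atp5a1 and Atp5b held 22.9% of the counts of all nuclear members. Sdhb was counted at 82.6, 89.2, 85.4, 88.5 and 84.1 CPM in control females and 116, 89.4, 85.9, 94.8 and 81.2 CPM in susceptible females. Susceptible female 1 stood far above the rest, and the other 4 lay on both sides of the controls.

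The difference between the sexes in the stress estimate, female minus male, was tested as an interaction. All 13 mitochondrial genes had it above 0, with a median of 0.34, although mt-Nd6 was below 0 with voom and without the libraries over the Ttr or Pmch limits, and mt-Atp6 without those over the Pmch limit. Of all genes 52.4% were above 0 and their median was 0.014. No mitochondrial gene passed (edgeR, lowest adjusted p = 0.587), no gene of the table did (0%), and 2 of 13 had an unadjusted p under 0.05 with a higher estimate, against 4.64% of all genes. Those were mt-Cytb at 0.46 ± 0.21 and mt-Co1 at 0.34 ± 0.15. Of the nuclear members 39 of 82 were above 0, with a median of -0.0089. The furthest from 0 were Ndufa4l2, Ndufb9 and Ndufs3 at 0.25 ± 0.26, 0.21 ± 0.13 and 0.18 ± 0.092, and Cox6a2, Atp5s and Ndufb2 at -0.30 ± 0.70, -0.28 ± 0.14 and -0.26 ± 0.18. The mitochondrial median was 0.18 without the libraries over 1 CPM of Pmch and 0.52 without those over 100 CPM of Ttr. Among the marker lists, all 6 oligodendrocyte markers had a difference below 0 with an unadjusted p under 0.05 (median -0.67), as had both lateral hypothalamic ones (median -7.61). All 6 thalamic (median -0.97), all 6 choroid plexus (median -0.46) and all 3 pituitary markers (median -2.94) were below 0, and all 8 striatal markers (median 1.26) and 70 of 77 cytosolic ribosomal protein genes (median 0.13) were above it. Above 0 too were 4 of 5 cortical (median 1.53) and all 4 endothelial markers (median 0.33), and 9 of 11 GABA neuron genes (median 0.18). None of these passed the test (edgeR), and their part in the mitochondrial difference was not tested. A different stress response of the mitochondrial genes in females and males was therefore not shown at this depth and number of libraries.

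**Figure D3:**
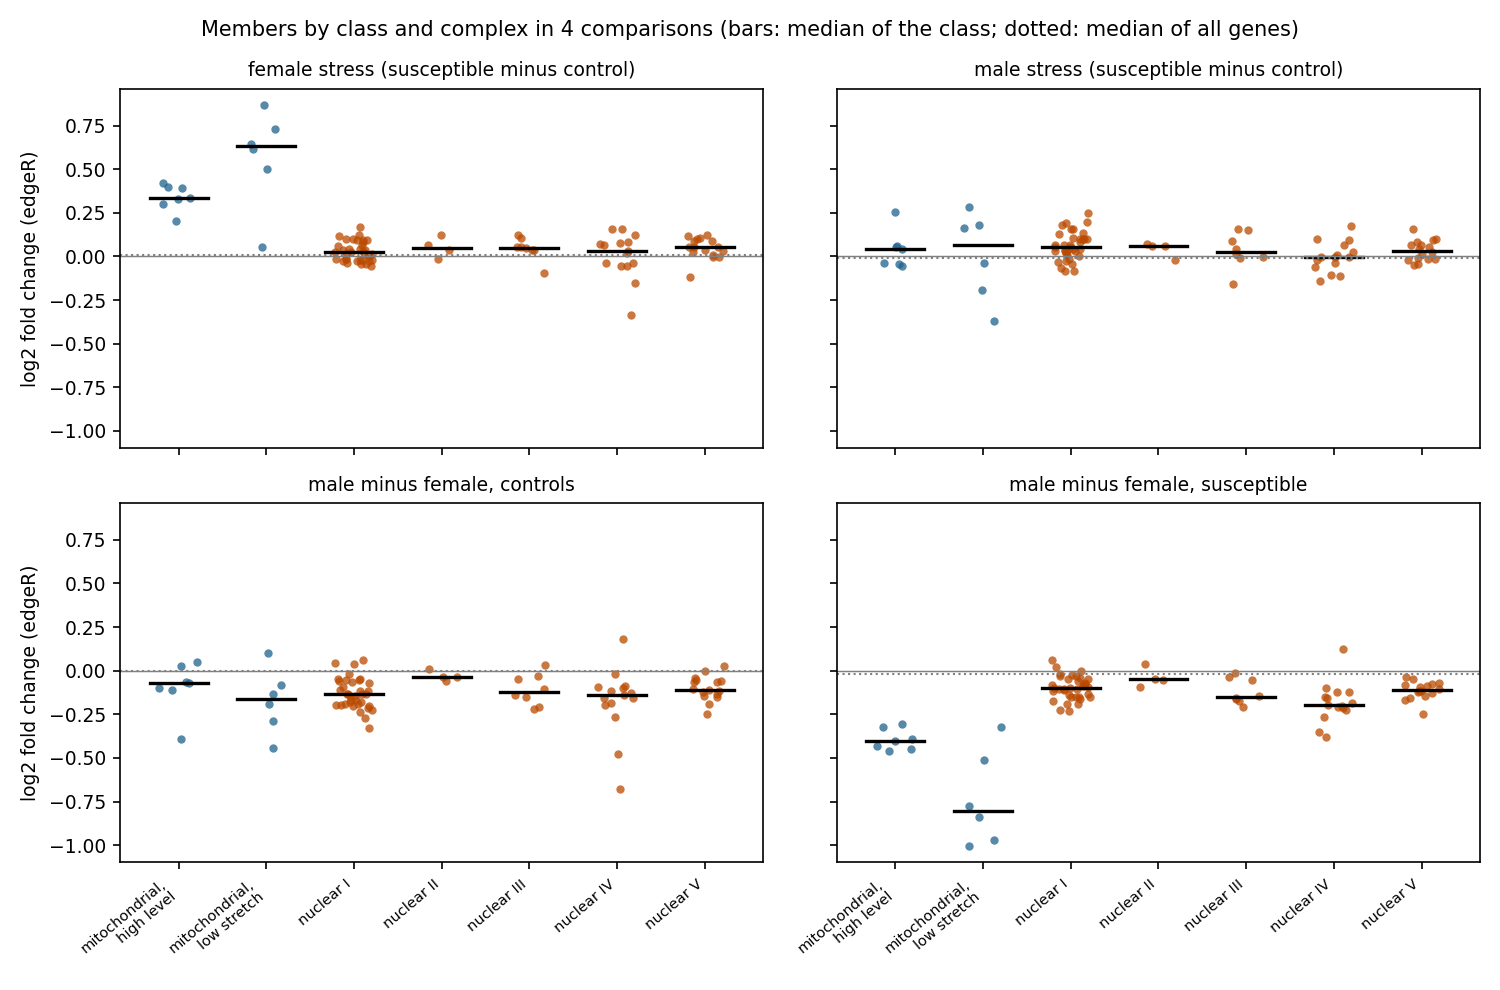
Log2 fold changes (vertical axis) of the members by class and complex in the female and male stress comparisons and the male minus female comparisons in controls and susceptible mice, leaving out the 3 nuclear genes that are no subunits. Each point is a gene, thick bars are class medians and the dotted line is the median of all genes. In susceptible females against controls every mitochondrial gene lies above 0, with medians of 0.33 for the high-level genes and 0.63 for the low stretch, while the nuclear complexes centre between 0.023 and 0.052.

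Between control males and control females, the nuclear class leaned one way. Of 82 nuclear members, 73 were lower in males, with a median of -0.12, where 50.5% of all genes were lower and their median was -0.0026. An unadjusted p under 0.05 with a lower estimate was met by 17 of 82 nuclear members and 8.84% of all genes. None passed, although 0.511% of all genes did (edgeR, lowest adjusted p among the nuclear members = 0.122, for Atp5s at -0.31 ± 0.096). In 6 members all control males lay below all control females, as in 1.57% of all genes: Ndufb6, Ndufb11 and Ndufa11 of complex I, Uqcrfs1 of complex III, Cox7b of complex IV and Atp5o, the stalk protein that ties the catalytic head of the ATP synthase, of complex V. Of these, Ndufb11 and Cox7b lie on the X chromosome, as does the nuclear member Ndufa1. The medians of complexes I, III, IV and V were -0.13, -0.12, -0.14 and -0.11, and that of complex II was -0.035. The lean was not particular to these members. Lower in control males too were 59 of 77 mitochondrial ribosomal protein genes (median -0.081) and 27 of 43 assembly factors (median -0.069). Of these, 9 and 5 had an unadjusted p under 0.05 with a lower estimate, and none passed (edgeR). Of the cytosolic ribosomal protein genes 41 of 77 were lower (median -0.0095).

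Ndufb6, an accessory complex I subunit, was counted at 25.1, 27.96, 32.8, 31.1 and 27.7 CPM in control females and 23.6, 21.7, 22.4, 22.8 and 24.4 CPM in control males. Its groups did not overlap, and the estimate was -0.33 ± 0.12 (edgeR, adjusted p = 0.159). Atp5o had 65.1, 63.3, 77.6, 65.1 and 67.1 CPM in control females and 57.2, 55.9, 59.99, 58.97 and 53.2 CPM in control males, again with no overlap. Its estimate was -0.25 ± 0.080 (edgeR, adjusted p = 0.136). Uqcrfs1, at 85.1, 91.3, 87.4, 97.1 and 85.2 CPM in control females, was above all the control male values given earlier, by -0.15 ± 0.068 as male minus female. The extremes of the class were Cox4i2, Ndufa4l2 and Ndufs3, which forms part of the complex I core, at 0.18 ± 0.36, 0.16 ± 0.19 and 0.062 ± 0.065, and Cox6a2, Cox6b2 and Ndufb6, at -0.68 ± 0.49, -0.48 ± 0.34 and the value above. Atp5a1 at 0.029 ± 0.053, Uqcrc1 at 0.031 ± 0.063 and Ndufs1 at 0.041 ± 0.045 were among the 9 not lower in males.

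The size of this nuclear difference depended on gene properties used in scaling. With offsets for GC content and exon length the median was -0.028 and 29 of 82 were above 0. With voom 11 nuclear members passed, among 3294 genes of the table. Without the libraries over 100 CPM of Ttr the median was -0.060 and 21 of 82 were above 0. Pmch passed 1 CPM in 3 control females and 0 control males. Both lateral hypothalamic markers were lower in males (median -6.33), each with an unadjusted p under 0.05, and neither passed the test (edgeR). The nuclear median without the libraries over 1 CPM of Pmch is not given here. In the same comparison all 6 oligodendrocyte and all 6 thalamic markers were lower in males, and all 8 striatal markers were higher, at the summed levels of the control groups given above. Of the 11 listed GABA neuron genes 10 were higher (median 0.36), 4 with an unadjusted p under 0.05 (edgeR). Of 6 astrocyte markers 5 were lower (median -0.25), 3 with an unadjusted p under 0.05 (edgeR). Lower too were 5 of 6 choroid plexus (median -1.11) and 4 of 5 cortical markers (median -0.10). No gene of these lists passed. Of the endothelial markers 4 of 4 were higher and 2 passed the test, at summed levels of 84.5 to 96.6 CPM in control females and 95.1 to 182 CPM in control males. Of the pituitary markers 3 of 3 were lower and 2 passed, at 3.65 to 132 and 1.34 to 5.79 CPM. Their part in the nuclear difference was not tested.

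The mitochondrial genes showed less of a lean between control males and females, with 10 of 13 lower in males and a median of -0.099. With voom 7 of 13 were higher, and without the libraries over 1 CPM of Pmch 0 were, with a median of -0.26. mt-Nd6, the complex I subunit encoded on the opposite strand from the other 12, had the only unadjusted p under 0.05. It was counted at 1209.9, 1436, 1429, 1939 and 1932 CPM in control females and 1545, 1085, 1018, 1069 and 1351 CPM in control males. Control males 1 and 5 lay within the female range, and the estimate was -0.39 ± 0.15 (edgeR, adjusted p = 0.180). With voom it passed, at -0.42 with an adjusted p of 0.0211. The strand setting of the counting was not stated in those sources, so mt-Nd6 reads cannot be told from reads of the facing strand.

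In susceptible mice all 13 mitochondrial genes were lower in males, with a median of -0.45, and 78 of 82 nuclear members were lower too, with a median of -0.11. Of all genes 55.5% were lower, with a median of -0.020. No member passed the test (edgeR, lowest adjusted p = 0.690 for the mitochondrial and 0.697 for the nuclear genes), and 0.047% of all genes did. An unadjusted p under 0.05 with a lower estimate was met by 10 of 13 mitochondrial and 7 of 82 nuclear members, against 3.02% of all genes. Among the mitochondrial genes the estimates ran from -1.01 ± 0.50 for mt-Atp8 and -0.97 ± 0.26 for mt-Co2 to -0.31 ± 0.12 for mt-Nd5. This comparison and the female stress comparison share the susceptible females, so their values are not separate evidence. Of the marker lists, all 8 striatal markers were lower in susceptible males (median -0.25), at 1001 to 4603 CPM in females and 988 to 3181 CPM in males. All 6 thalamic (median -0.34), all 3 pituitary (median -2.15), all 5 cortical (median -1.53) and 5 of 6 choroid plexus markers (median -0.78) were lower too, and 3 of 4 endothelial ones were higher, 2 with an unadjusted p under 0.05. None passed, and their part in the differences was not tested.

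Of the 95 tested members, only mt-Nd6 had all susceptible males below all susceptible females, a pattern met by 0.396% of all genes. It was counted at 2490.2, 2279, 1686, 1780.05 and 1729.98 CPM in susceptible females and 1361, 1321, 1502, 1642 and 1419 CPM in susceptible males, and the estimate was -0.46 ± 0.15 (edgeR, adjusted p = 0.697). The gap between the lowest female and the highest male was narrow beside the female spread. Of the nuclear members, Cox6a2, Cox6b2 and Cox6c were the lowest at -0.38 ± 0.50, -0.35 ± 0.34 and -0.26 ± 0.083, and Cox4i2, Ndufb2 and Sdha the highest at 0.13 ± 0.37, 0.062 ± 0.13 and 0.038 ± 0.065. The 7 with an unadjusted p under 0.05 were Cox6c, Cox7a2, Cox8a and Ndufa4 of complex IV, Ndufb7 and Ndufb9 of complex I, and Atp5o. Lower in males in both sex comparisons were 71 nuclear members. Without susceptible female 1 the nuclear median was -0.033 with 22 of 82 above 0, and with offsets for GC content and exon length it was -0.046 with 16 of 82.

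**Figure D4:**
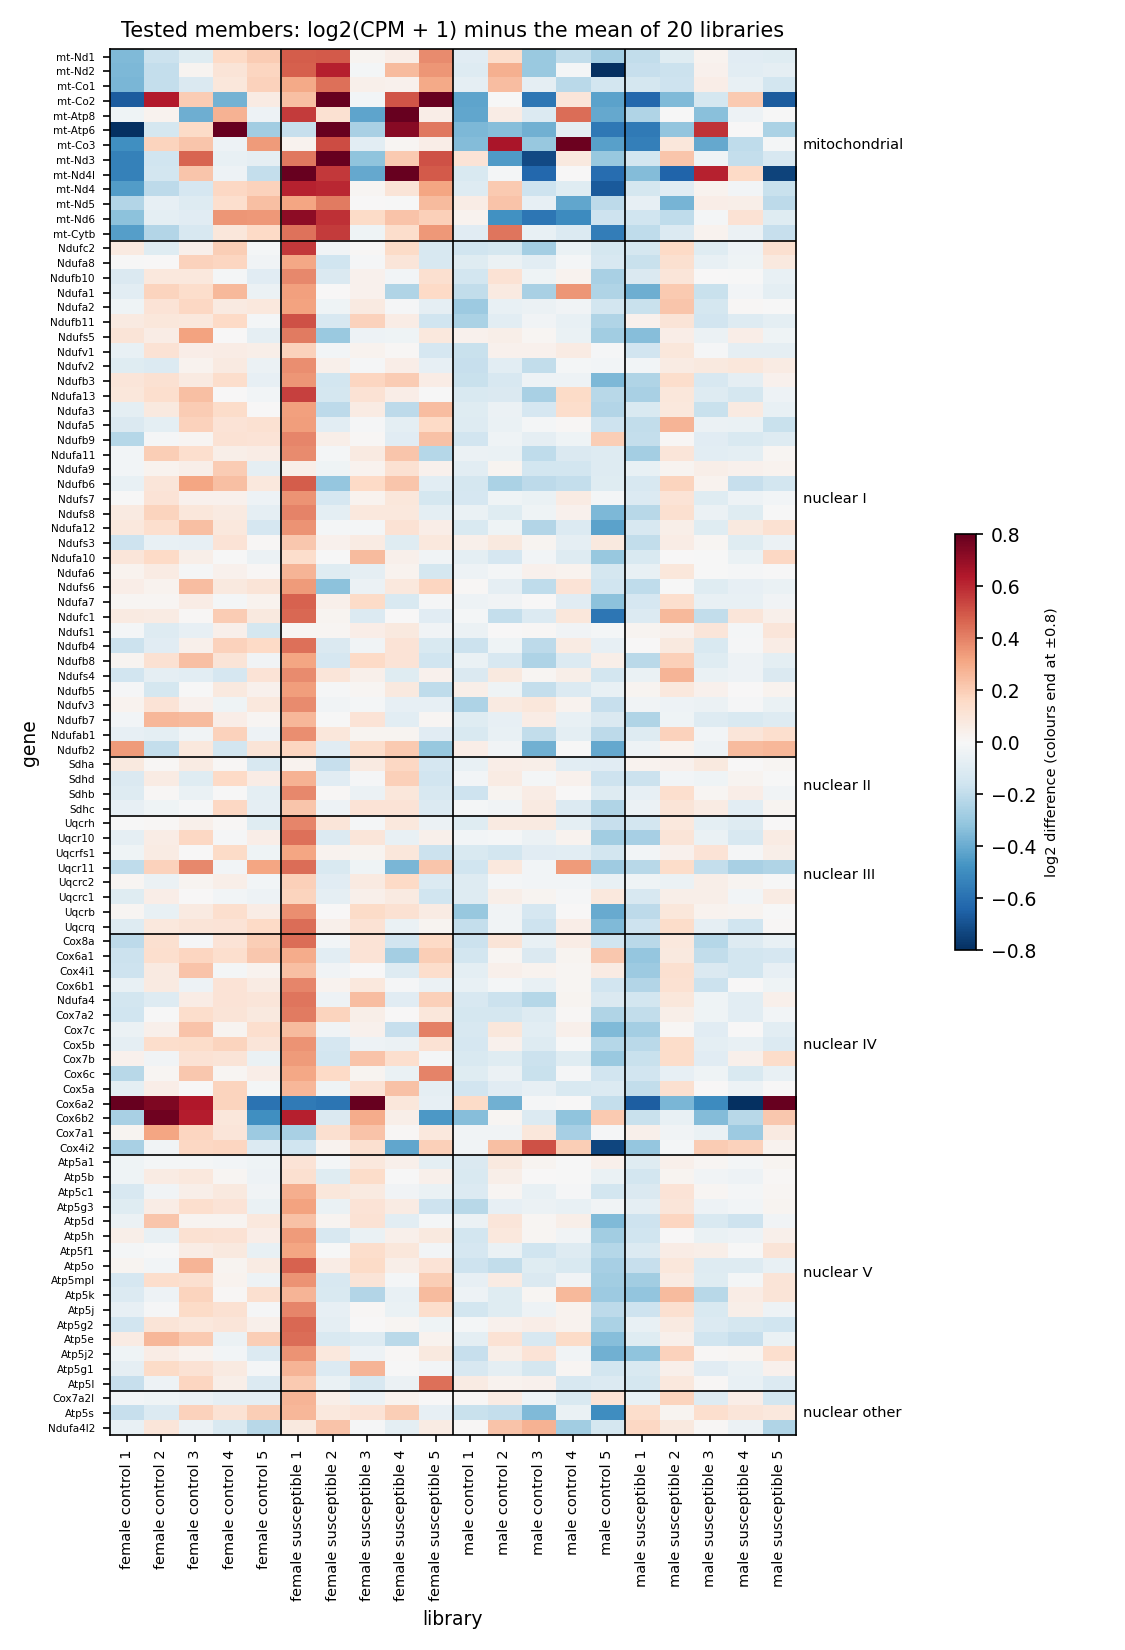
All but 1 of the 95 tested members (rows, mitochondrial genes in chromosome order, then the nuclear complexes) in the 20 libraries (columns), coloured by log2(CPM + 1) minus the gene's mean over the libraries, in log2 units that end at ±0.8. The column of susceptible female 1 is high across nearly all nuclear rows, while susceptible female 2 is high in most mitochondrial rows and in some nuclear ones, such as Cox7a2.

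Over the 20 libraries, members of a class varied together, and the classes followed each other loosely. These correlations describe the libraries, which share groups, depth and base composition, and carry no test. Pairs of high-level mitochondrial genes had a median Pearson r of 0.84 (range 0.55 to 0.97, 21 pairs), pairs within the low stretch 0.51, and the 3321 nuclear pairs 0.53. Between a high-level mitochondrial gene and a nuclear one the median was 0.31. Pairs of other genes were not examined for comparison. The nuclear pairs were not redone without susceptible female 1, which was high in nearly all nuclear members. The mean log2 CPM of the 13 mitochondrial genes and that of the 82 nuclear ones had r = 0.45 and Spearman's rho = 0.38. After removing group means r was 0.21, and without the 2 libraries farthest from the median on the mitochondrial axis (susceptible females 2 and 1) it was 0.45. On shares of counts r was 0.27 and rho -0.0075, and r was 0.0072 without the same 2 libraries, so that relation rests on them. For the high-level genes alone against the nuclear mean r was 0.45, and 0.34 without them. The 2 farthest libraries show the looseness. Susceptible female 2 had the highest mitochondrial share, 7.37%, with a nuclear share of 0.775%, among the lowest, while susceptible female 1 had 7.22% and the highest nuclear share, 1.01%.

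**Figure D5:**
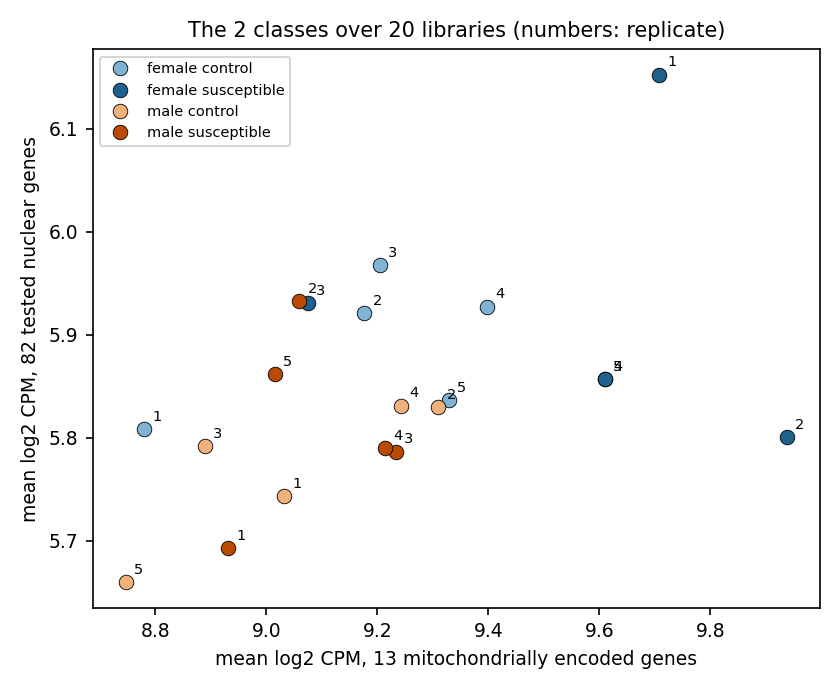
Mean log2 CPM of the 13 mitochondrial genes (horizontal axis) against that of the 82 tested nuclear members (vertical axis), each point a library with its replicate number, coloured by group. Susceptible females 1, 2, 4 and 5 lie farthest right, from 9.61 to 9.94, and of these only number 1 is also high on the nuclear axis, at 6.15.

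Of the 82 nuclear members, 79 correlated positively with the mitochondrial mean (median r 0.37, against 0.0041 for the 14789 other genes tested). Cox7a2 and Cox6c followed it closest, with r of 0.75 each, and Cox6a2, Sdha and Cox7a1 had r below 0, at -0.34, -0.27 and -0.13. Among all 10347 genes compared with a mean of at least 10 CPM, the 5 most like the mitochondrial mean were B2m, the light chain of class I histocompatibility molecules, with r = 0.85, Mrps30 with 0.78, a mitochondrial ribosomal protein, Bbip1 with 0.78, Mtx2, a protein of the outer mitochondrial membrane, with 0.76, and Cyb5a, an electron carrier of the endoplasmic reticulum, with 0.76. The most opposite were Myo1c with -0.79, Ddb1 with -0.78, Phf20 with -0.77, Cep250 with -0.77 and Golga2 with -0.76. B2m averaged 66.05 CPM in control and 74.8 CPM in susceptible females, 63.1 in control and 66.2 in susceptible males. The extremes of so many genes lie far from 0 by selection.

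Genes that serve the same machinery gave no call in any of the comparisons. Of 43 tested assembly factors, which build the complexes, 29 were higher in susceptible females (median 0.057) and 27 in susceptible males (median 0.045). Of 27 genes for transcription, replication and RNA stability of the mitochondrial chromosome, 21 were higher in susceptible females (median 0.059) and 16 in susceptible males (median 0.083). Tfam, which packages and transcribes that chromosome, had female and male estimates of 0.018 ± 0.067 and 0.10 ± 0.067. Polrmt, its RNA polymerase, had -0.016 ± 0.073 and -0.14 ± 0.073. Tfb2m, its transcription initiation factor, had 0.21 ± 0.072 and -0.045 ± 0.072 (edgeR, adjusted p = 0.774 and 0.864). Lrpprc, which stabilises mitochondrial messages, had -0.083 ± 0.058 and 0.14 ± 0.058.

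Of 8 nuclear regulators, 5 were higher in susceptible females and 2 in susceptible males. Nrf1 had 0.0086 ± 0.064 in females, Gabpa 0.20 ± 0.096 and Ppargc1a, the coactivator PGC-1alpha, -0.066 ± 0.11. Of 13 genes of the tricarboxylic acid cycle, which supplies NADH and succinate, 10 were higher in susceptible females and 11 in susceptible males, with medians of 0.040 and 0.060. The mitochondrial ribosome, which translates the 13 mitochondrial messages, had 52 of 77 genes higher in susceptible females (median 0.034) and 51 of 77 in susceptible males (median 0.045). The cytosolic ribosome, set beside it as an unrelated abundant class, had 71 of 77 higher in susceptible females (median 0.11) and 22 of 77 in susceptible males (median -0.037). Of the 6 electron carrier genes 6 were lower in control males than in control females, with a median of -0.21. No gene of these 7 lists passed the test.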

How the data were processed

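Gene counts were deposited by the authors as whole numbers per library, and HISAT2, featureCounts and the build mm10 are named in the submitters' processing notes. Settings for strand and for reads with several matches were not given there. The 20 libraries fall into 4 groups of 5 by their titles. CPM values used edgeR 4.0.16 with TMM scaling and a prior count of 2 on the log2 scale. After edgeR's filter on low counts 14884 genes were tested with the robust quasi-likelihood test on all 20 libraries, with Benjamini-Hochberg adjustment. Alternatives used DESeq2 1.42.0, limma 3.58.1 (voom) and offsets fitted with mgcv 1.9.3, in R 4.3.3. The procedure was tested on simulated data: with 200 of 14884 genes changed, it recovered 51% of 1.5-fold and 76% of 2-fold changes in the female stress comparison, 59% and 82% in the male stress, 29% and 66% in the difference, 49% and 76% in the control sex and 50% and 81% in the susceptible sex comparison. Most member estimates are smaller than 1.5-fold. The simulated counts were drawn separately for each gene, without tissue differences shared between genes. Recovery where far fewer than 200 genes change was not tested, and the adjusted threshold is harder to reach there. Members, gene lists and comparisons were chosen with earlier results of these data known. Named nuclear genes are the 3 highest and 3 lowest estimates of each comparison, the catalytic core and the tissue isoforms. 1 core subunit is not reported here. Genes named for an unadjusted p, for groups without overlap or for passing with voom were chosen after their values were seen.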

Additional observations from a re-analysis of the deposited data

Results flagged for a closer look

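Each of the 13 mitochondrial genes, the class sums and the 16 nuclear members with the most extreme estimates was searched for a library far from the other 4 of its group, and 9 of 140 groups had one. Chance alone gives about 1 in 20 groups. mt-Co1 was at 21991.4 CPM in control male 2, against 15928.6 to 17616.8 CPM in the other control males. mt-Co3 was at 165.023 CPM in susceptible female 2, against 107.619 to 118.749 CPM. Control female 4 had 46.3382 CPM of Ndufab1, where the others had 38.3945 to 39.7972 CPM. Ndufs4 stood out in control female 5 at 44.3069 CPM, against 36.8467 to 38.9134 CPM, and in susceptible male 2 at 49.6579 CPM, against 37.8709 to 39.8399 CPM. The same susceptible male had 40.5034 CPM of Uqcr11, against 30.3277 to 31.7951 CPM. Cox6a1 was low in control female 1, at 162.182 CPM against 200.851 to 212.488 CPM. Cox6a2, the muscle isoform, was high in susceptible female 3 at 8.00072 CPM, against 1.61665 to 3.1732 CPM, and in susceptible male 5 at 6.91556 CPM, against 1.05004 to 2.04164 CPM. The cause of these values was not tested.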

How the results depend on the processing

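No member passed the edgeR test in any comparison, and the 11 alternatives other than leaving out a library gave calls only with limma's voom. Under voom 1 nuclear member (Atp5s) passed in the male stress comparison, and in control males against control females 1 mitochondrial gene (mt-Nd6) and 11 nuclear members passed (Ndufa13, Atp5g1, Atp5s, Ndufa12, Uqcrfs1, Ndufb7, Ndufb6, Ndufa11, Ndufb8, Atp5o and Ndufa10). The whole table had 683 and 3294 calls there, against 0 and 76 in edgeR, and DESeq2 had 13 and 455, with no member. Leaving out 1 library at a time gave 0 to 1 nuclear calls in the control sex comparison, the 1 without control female 5. The median mitochondrial estimate in the female stress comparison ran from 0.28 (without susceptible female 2) to 0.47 over these, and 0.20 without the libraries over 1 CPM of Pmch, where the control females' mitochondrial share was 5.91%. Nuclear estimates above 0 in the female stress comparison numbered 33 to 71 of 82 over these, and in the male stress comparison 46 to 69. The GC and length offsets leave the mitochondrial genes as they are by construction. Same-numbered libraries of different groups had a mean correlation of 0.032 (30 pairs, -0.58 to 0.64), so the numbers were not taken as pairs, and with a replicate block 0 members passed in every comparison and 110 genes of the table did in the control sex comparison. Fitting the groups of a comparison alone gives no value for the difference of stress estimates. Low counts limit mt-Atp8, at 0.240 to 2.12 CPM; the cause of the wider spread of its neighbours was not tested.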

Other observations

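Susceptible female 1 carried the highest summed level of the nuclear members and of the cytosolic ribosomal protein genes alike. In susceptible males against susceptible females 73 of 77 cytosolic ribosomal protein genes and 62 of 77 mitochondrial ribosomal protein genes were lower, with medians of -0.15 and -0.069, and none passed the test (edgeR).

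Within the mitochondrial chromosome, the mean of the 7 high-level genes and that of the 5 genes with a near-identical copy followed each other over the 20 libraries with r = 0.79 and Spearman's rho = 0.68, and with r = 0.69 without susceptible females 1 and 2, as a description of these libraries.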
